A study of Mus musculus with 12 samples.

Results

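The subunits of oxidative phosphorylation encoded by the mitochondrial and the nuclear genome were described in brain cell fractions of aged mice. Members were all genes whose symbol begins with mt-Nd, mt-Co, mt-Atp, mt-Cyt, Nduf followed by a, b, c, s or v, Uqcr or Cox4 to Cox8, together with the 4 genes Sdha, Sdhb, Sdhc and Sdhd. Of 41388 genes in the files, 40254 had a symbol and 96 matched, and 7 of these were left out as pseudogenes, which left 89 members. Of the 89, 13 are mitochondrially encoded (7 of complex I, 1 of complex III, 3 of complex IV and 2 of complex V) and 76 are nuclear (36 of complex I, 4 of complex II, 8 of complex III, 18 of complex IV, 8 complex I assembly factors of the Ndufaf group, and the paralogues Cox7a2l and Ndufa4l2). The rule takes in no nuclear subunit of complex V. The testis isoform Cox8c had 0 counts in all 12 libraries, and the other 88 members passed the filter on low counts in every comparison.

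The series holds 12 bulk RNA libraries from 20-month-old mice on a C57BL\6 background with the strain label Bmal fl/fl; ALDH1L1-CreERT2, so that controls carry the floxed alleles as well. Astrocytes were captured from collagenase-digested brain on beads against ACSA-2, a surface antigen of astrocytes, and the unbound cells make up the flowthrough. The groups were KO astrocytes (Cre+, mice 60, 62, 73 and 132), WT astrocytes (Cre-, mice 56, 57, 64 and 78), KO flowthrough (Cre+, mice 60 and 132) and WT flowthrough (Cre-, mice 56 and 64), and values are given in this order of mice throughout. Tamoxifen (2 mg a day by gavage, on 5 days, at the age of 2 months) was given to the mice of both labels. The inducible Cre is named for ALDH1L1, an astrocyte gene, so that recombination is aimed at astrocytes and the flowthrough consists largely of cells in which it is not.

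The respiratory chain passes electrons from NADH (complex I) and succinate (complex II) through coenzyme Q, complex III and cytochrome c to oxygen at complex IV, and the proton gradient built on the way drives ATP synthesis at complex V. Complexes I, III, IV and V are mosaics: the hydrophobic core subunits are read from mitochondrial DNA as long transcripts of both strands that are cut at the tRNAs, while the remaining subunits come from nuclear genes and are imported. Complex II is wholly nuclear. Adult astrocytes are known for high glycolytic flux beside a full respiratory chain.

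Total counts ran from 38691406 to 51551942 per library. Arntl, which encodes BMAL1 and is the targeted gene, had 401, 428, 645 and 628 counts in KO astrocytes and 360, 239, 242 and 374 in WT astrocytes, and 261 and 284 counts in KO flowthrough against 292 and 217 in WT flowthrough. It was therefore not lower in the libraries labelled KO (log2 fold change 0.66 ± 0.19, standard error, adjusted p = 0.473 in astrocytes), and KO and WT here mean libraries so labelled. The labels do not name the floxed exons, and counts over a whole gene need not fall where only some exons are removed, so these counts do not check the labels. The summed level of 6 clock genes, Arntl included, was 124 to 149 CPM in KO astrocytes against 188 to 215 CPM in WT astrocytes, and 124 to 151 CPM in KO flowthrough against 127 to 149 CPM in WT flowthrough, with none of the 6 called in either fraction. KO astrocytes 73 and WT astrocytes 78 were the only libraries with high Xist (2411 and 1133 counts, against 0 to 10 in the other 10 libraries), and these libraries had 3 and 1 counts of the Y-linked Ddx3y, against 2176 to 4970 in the others. KO astrocytes 73 also stood apart in the cells it held: the summed level of 12 astrocyte markers was 11325 CPM there, against 17367 to 23156 CPM in the other 7 astrocyte libraries, and that of 12 microglia markers 3245 CPM, against 685 to 1357 CPM.

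Several mitochondrially encoded members cannot be counted cleanly, because the nuclear genome holds a copy of part of the mitochondrial genome on chromosome 1. The annotation lists 7 genes in this copy, on the minus strand of chromosome 1 (GRCm38) between 24611535 and 24616197. Those matching mt-Co2, mt-Atp6, mt-Co3 and mt-Nd4l are identical to the mitochondrial gene over at least 98.99% of its length, and that of mt-Nd3 differs at 1 position. The opening 90 bases of mt-Co2 (mitochondrial positions 7013 to 7102) and of its copy Gm28661 (chr1:24615476-24615565) are shown because the letters are the same, so that a read inside them has no unique origin. Those of mt-Nd3 (9459 to 9548) and of its copy Gm28438 (chr1:24613030-24613119) are shown because the capital letter is the only base that differs over the whole alignment, so that a read inside the rest of it has no unique origin either.
mt-Co2: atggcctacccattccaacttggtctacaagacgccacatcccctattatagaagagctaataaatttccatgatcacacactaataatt
Gm28661: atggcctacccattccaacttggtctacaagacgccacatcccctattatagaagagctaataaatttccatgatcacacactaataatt
mt-Nd3: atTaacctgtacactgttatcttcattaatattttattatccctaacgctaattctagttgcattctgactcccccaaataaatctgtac
Gm28438: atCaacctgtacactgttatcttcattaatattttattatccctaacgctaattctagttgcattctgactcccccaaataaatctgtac
Counts of the copies differed between genes. Gm28661 had 1.02 to 1.14 times the counts of mt-Co2 over the 12 libraries, and the copies of mt-Atp6 and mt-Co3 had 0.969 to 1.13 and 0.914 to 1.04 times the counts of their mitochondrial genes. The copy of mt-Nd4l had 0.735 to 1.17 times the mt-Nd4l counts. The copy of mt-Nd3 had 0.0195 to 0.0404 times the mt-Nd3 counts. The copies that match a part of mt-Co1 (31.3% of it, 1 mismatch) and of mt-Nd4 (63.6% of it, no mismatch) had 0.0270 to 0.0383 and 0.0140 to 0.0196 times the counts of those genes, so that copies of like identity had very different shares. Of the 50-base words of each gene, at least 97.99% also occur in transcripts of other genes for mt-Co2, mt-Co3, mt-Atp6, mt-Nd4l and mt-Nd3, 62.2% for mt-Nd4 and 51.1% for mt-Co1. Levels of these 7 genes are therefore uncertain, as are those of mt-Atp8 and mt-Nd6, which overlap mt-Atp6 and mt-Nd5, since the rule for reads with several origins or on overlapping genes and the use of strand are not known from the labels.

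On the nuclear side, RefSeq promoters (GRCm38.p6, 250 bases before to 50 after each start) were matched for 61 of the 76 nuclear members. The site of NRF1 (GCGCA and GCGC with 1 base between them), a factor known for activating nuclear genes of the respiratory chain, was present in 13 of the 61 (21.3%), against 5.19% of all 27025 genes with a promoter, on either strand. The ETS site CCGGAAGT, bound by GABP, was in 4 (6.56%, against 4.31%), and the YY1 site AANATGGCG in 8 (13.1%, against 2.76%). The E-box CACGTG, the site of BMAL1 and CLOCK, was in 2 genes named for this match alone, Ndufa7 and Ndufv1 (3.28%, against 8.09%), and the TATA box TATAAA in 6 (9.84%, against 15.7%). Matches of different motifs may overlap each other, and a match is only a match of letters. The promoters of 3 members are shown because these genes are among those with the smallest p between the fractions: Ndufa5 (chr6:24527641-24527940, minus strand, NRF1 site in capitals, starting 26 bases before the start), Cox8a (chr19:7217567-7217866, minus strand, ETS sites in capitals, read on the other strand) and its isoform Cox8b (chr7:140900397-140900696, minus strand, TATA box in capitals, starting 4 bases after the first base of the annotated transcript).
Ndufa5: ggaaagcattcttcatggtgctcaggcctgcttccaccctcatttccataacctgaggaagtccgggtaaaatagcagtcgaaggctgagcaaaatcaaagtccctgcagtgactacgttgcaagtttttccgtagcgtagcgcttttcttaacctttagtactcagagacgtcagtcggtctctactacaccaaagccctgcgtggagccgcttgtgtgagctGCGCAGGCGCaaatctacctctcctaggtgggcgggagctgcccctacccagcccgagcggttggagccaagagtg
Cox8a: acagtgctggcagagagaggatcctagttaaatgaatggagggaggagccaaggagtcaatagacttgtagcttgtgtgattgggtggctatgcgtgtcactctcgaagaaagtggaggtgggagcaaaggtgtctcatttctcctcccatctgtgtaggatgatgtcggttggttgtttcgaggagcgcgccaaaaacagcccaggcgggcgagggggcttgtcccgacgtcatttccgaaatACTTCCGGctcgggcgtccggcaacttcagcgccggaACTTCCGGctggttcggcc
Cox8b: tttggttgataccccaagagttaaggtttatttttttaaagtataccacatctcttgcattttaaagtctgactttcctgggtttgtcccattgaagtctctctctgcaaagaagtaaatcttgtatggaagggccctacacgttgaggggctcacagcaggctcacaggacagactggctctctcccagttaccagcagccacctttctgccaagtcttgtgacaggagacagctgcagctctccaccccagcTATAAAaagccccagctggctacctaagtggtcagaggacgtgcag

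The balance between the genomes is given first, from shares of all counts. The 13 mitochondrially encoded members took 10.8, 9.14, 8.58 and 10.4% of counts in KO astrocytes, 8.69, 13.6, 10.2 and 13.3% in WT astrocytes, 8.33 and 5.76% in KO flowthrough and 5.65 and 3.51% in WT flowthrough. All 8 astrocyte libraries were above all 4 flowthrough libraries, and within the astrocytes WT 57 and WT 78 were the highest while the labels overlapped. The 76 nuclear members together took 2.33, 2.28, 1.83 and 2.31% in KO astrocytes, 2.13, 2.21, 2.28 and 2.34% in WT astrocytes, 1.82 and 1.54% in KO flowthrough and 1.68 and 1.68% in WT flowthrough. Here too the fractions did not overlap, although KO astrocytes 73 came within 0.01 of a percentage point of KO flowthrough 60. The ratio of mitochondrially encoded to nuclear member counts was 4.65, 4.01, 4.700 and 4.51 in KO astrocytes, 4.08, 6.17, 4.49 and 5.68 in WT astrocytes, 4.58 and 3.73 in KO flowthrough and 3.35 and 2.09 in WT flowthrough. WT flowthrough had the lowest ratios, WT astrocytes 57 and 78 the highest, and the KO fractions overlapped.

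**Figure D1:**
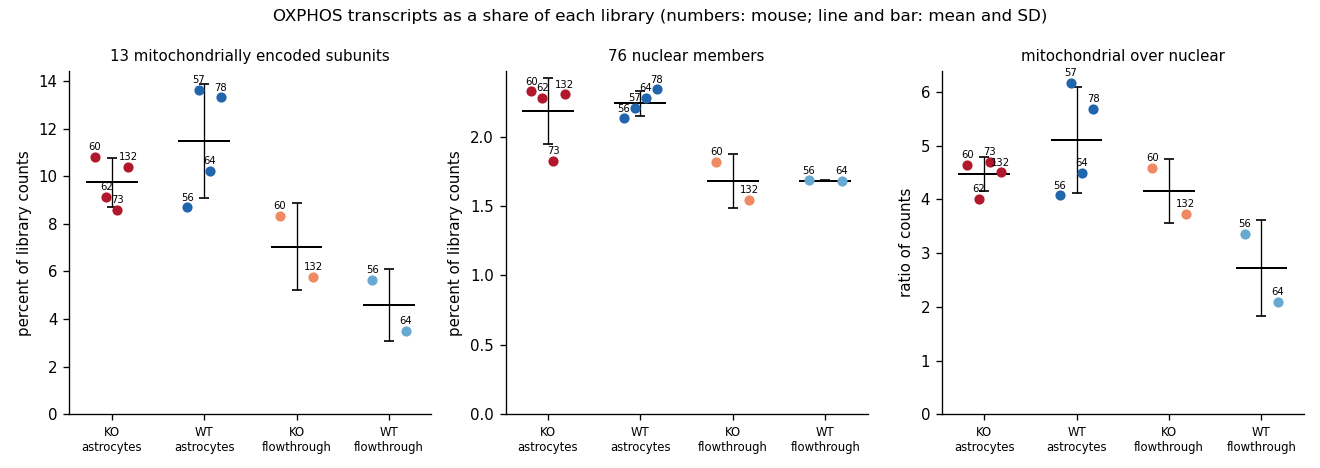
Share of each library's counts (percent) in the 13 mitochondrially encoded members (left) and the 76 nuclear members (middle), and the ratio of both (right), for KO astrocytes, WT astrocytes, KO flowthrough and WT flowthrough. Each point is a library with its mouse number, and lines with bars give mean and SD; the mitochondrially encoded share runs from 8.58% to 13.6% in astrocytes and from 3.51% to 8.33% in flowthrough.

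Per length of transcript, the mitochondrially encoded genes stood far above the nuclear ones. RPKM here is the scaled CPM per kilobase of the deposited summed exon length. Over the 7 mitochondrially encoded members left when mt-Atp8 and the 5 with a copy of nearly their whole length were set aside (mt-Co1 and mt-Nd4 among the 7 have a copy of a part), the median was 5891 ± 992 RPKM in KO astrocytes, 7277 ± 2329 in WT astrocytes (SD, n = 4 each), 3739 ± 1019 in KO flowthrough and 2324 ± 837 in WT flowthrough (SD, n = 2 each). The median over the nuclear subunits was 178 ± 31.9 RPKM in KO astrocytes, 183 ± 19.9 in WT astrocytes, 140.1 ± 12.3 in KO flowthrough and 141 ± 2.03 in WT flowthrough. The mitochondrial median thus differed more between fractions than the nuclear one.

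Among the mitochondrially encoded genes the order of levels was the same at the top in all 4 groups. mt-Cytb (ENSMUSG00000064370, chromosome MT, 14145 to 15288), the cytochrome b of complex III, had 24641 ± 4743 RPKM in KO astrocytes, 31084 ± 10209 in WT astrocytes, 17659.9 ± 5259 in KO flowthrough and 10769 ± 3709 in WT flowthrough. mt-Co1 (ENSMUSG00000064351, chromosome MT, 5328 to 6872), the catalytic subunit of complex IV, had 19739 ± 3874, 23539 ± 7131, 12278 ± 4693 and 7675 ± 3225 RPKM in the same groups, and mt-Nd1, a proton-pumping core subunit of complex I, had 17536 ± 2446, 20453 ± 5211, 11568 ± 2429 and 7349 ± 1157 RPKM. In each group mt-Co1 and mt-Nd1, neighbours in this order, differed by less than their SD. mt-Nd4l and mt-Atp8, both short and overlapping a neighbour, were lowest, at 49.7 ± 15.7 and 65.3 ± 18.02 RPKM in KO astrocytes.

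**Figure D2:**
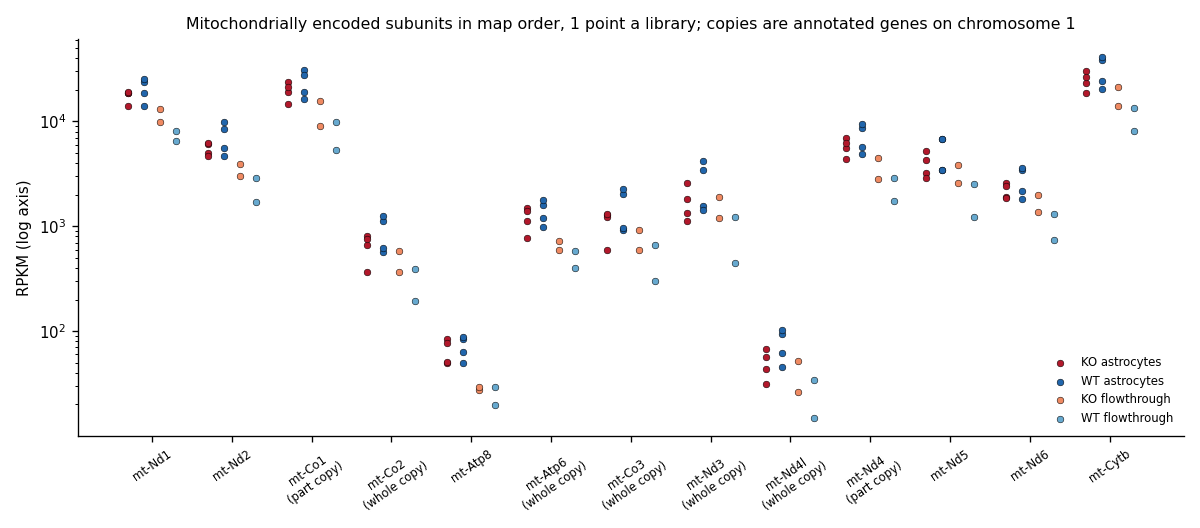
Level (RPKM, log axis) of the 13 mitochondrially encoded members in map order, 1 point a library, coloured by group; labels mark genes with a whole or partial copy on chromosome 1. mt-Cytb, mt-Co1 and mt-Nd1 lie highest and mt-Nd4l and mt-Atp8 lowest in every library.

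Within each nuclear complex the levels spread widely. In complex I, Ndufb9, an accessory subunit of the membrane arm, was highest in KO astrocytes (1208 ± 267 RPKM), WT astrocytes (1279 ± 228) and KO flowthrough (671 ± 234), and Ndufa1, another accessory subunit, in WT flowthrough (601 ± 31.02). Ndufb2 was the lowest of complex I in all groups (1.89 ± 0.0755 RPKM in KO astrocytes), with a deposited length of 5628 bases. Ndufab1 (6883 bases) and Ndufs1 (8086 bases), named here because of their values, are longer and were at 15.1 and 17.1 RPKM in KO astrocytes. The reason for the low value of Ndufb2 was not tested. In complex II, Sdha, the flavoprotein that oxidises succinate, was highest in both astrocyte groups (211 ± 53.8 RPKM in KO and 203 ± 16.6 in WT), Sdhd, a membrane anchor, in both flowthrough groups (150.4 ± 3.02 in KO and 162 ± 5.61 in WT), and Sdhc, the other anchor, was lowest in each. Sdhb, at 167 RPKM in KO astrocytes, was within the SD of Sdha there. Sdha, at 143 RPKM in KO flowthrough, was close to Sdhd there. In complex III, Uqcr10 was highest (823 ± 194 RPKM in KO astrocytes, within the SD of Uqcr11 at 815 ± 155) and the Rieske iron-sulphur protein gene Uqcrfs1 lowest (16.5 ± 2.38). In complex IV, Cox6a1 was highest (2060.2 ± 626 RPKM in KO astrocytes and 2432 ± 567 in WT astrocytes) and, apart from Cox8c at 0, the testis isoform Cox7b2 lowest (2.42 ± 0.860 in KO astrocytes). Of the 76 nuclear members, 61 shared under 10% of their 50-base words with transcripts of other genes, 37 shared none, and 1, Ndufaf2, shared over 50% (64.1%), so its counts are uncertain.

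The comparison of astrocytes with flowthrough asked how the captured cells differ from the rest of the brain suspension. Mitochondrially encoded transcripts were about 2-fold higher in the astrocyte fraction, most nuclear members rose with a smaller median, and a small group of complex IV isoforms was lower. Of the 88 members tested, 61 were higher and 6 lower in astrocytes at an adjusted p under 0.05 (edgeR quasi-likelihood test, Benjamini-Hochberg over all genes), or 69.3% and 6.82%. In this comparison 49.2% of all 20997 genes passed, 24.8% higher and 24.4% lower. The median log2 fold change was 1.04 over the 13 mitochondrially encoded members, 0.45 over the 75 nuclear members tested and 0.00 over all genes. The contrast rests on 4 flowthrough libraries: without KO flowthrough 132 the number of members called was 40, with 8 of the 13 mitochondrially encoded ones, and without WT flowthrough 64 it was 45, again with 8. In bulk libraries, fewer cells of a type and less RNA per cell cannot be told apart.

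All 13 mitochondrially encoded members were higher in astrocytes, and 12 passed. For mt-Cytb the values were 34354, 26643, 21563 and 30196 CPM in KO astrocytes, 23172, 44312, 28091 and 46666 in WT astrocytes, 24457 and 15949 in KO flowthrough and 15320.0 and 9319 in WT flowthrough. KO flowthrough 60 reached the level of the lower astrocyte libraries, and the other 3 flowthrough libraries lay below all astrocyte libraries (log2 fold change 1.005 ± 0.26, adjusted p = 0.00711). For mt-Nd1 there were 17737, 17689.5, 13303 and 18396 CPM in KO astrocytes, 13456, 22590.5, 17713 and 24535 in WT astrocytes, 12714 and 9426 in KO flowthrough and 7816 and 6250.5 in WT flowthrough. Here no flowthrough library reached an astrocyte library (1.04 ± 0.20, adjusted p = 0.00136).

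The largest difference was that of mt-Atp8, a short membrane subunit of complex V, with 10.1, 17.2, 10.3 and 15.8 CPM in KO astrocytes, 10.2, 17.2, 12.97 and 18.1 in WT astrocytes, 5.54 and 6.003 in KO flowthrough and 5.95 and 4.02 in WT flowthrough. The fractions did not overlap (1.38 ± 0.22, adjusted p = 5.03e-04). The member that did not pass was mt-Nd3 (complex I), with 900.5, 467, 392 and 638 CPM in KO astrocytes, 544, 1206, 499 and 1449 in WT astrocytes, 656 and 416 in KO flowthrough and 430.2 and 156 in WT flowthrough. The fractions overlapped, with KO flowthrough 60 above 5 astrocyte libraries (0.91 ± 0.38, adjusted p = 0.0683). With the mouse as block, on the 4 mice with both fractions, mt-Nd3 was called higher (0.76 ± 0.21, adjusted p = 0.0178).

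Of the remaining mitochondrially encoded members, mt-Atp6 (1.19 ± 0.23), mt-Nd4 (1.16 ± 0.25), mt-Co1 (1.15 ± 0.27), mt-Nd2 (1.15 ± 0.24) and mt-Co3 (1.11 ± 0.34) were above the median of the 13. mt-Co2 (1.03 ± 0.31), mt-Nd4l (0.98 ± 0.33), mt-Nd6 (0.92 ± 0.24) and mt-Nd5 (0.87 ± 0.29) were below it, all passing. The 7 members without a copy of nearly their whole length, mt-Atp8 left out, had a median of 1.04, and mt-Atp8 with the 5 that have one had a median of 1.07.

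Within a mouse, the same direction was seen in all 4 animals with both fractions. All 13 mitochondrially encoded members were higher in the astrocytes of KO mice 60 and 132, with medians of 0.49 and 1.05 (log2), and of WT mice 56 and 64, with medians of 0.60 and 1.68. Of the 75 nuclear members, 69 and 68 were higher in KO mice 60 and 132 (medians 0.45 and 0.62), and 64 were higher in each of WT mice 56 and 64 (medians 0.29 and 0.37). The mitochondrial median was thus well above the nuclear one in 3 of the 4 mice and close to it in KO 60.

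**Figure D3:**
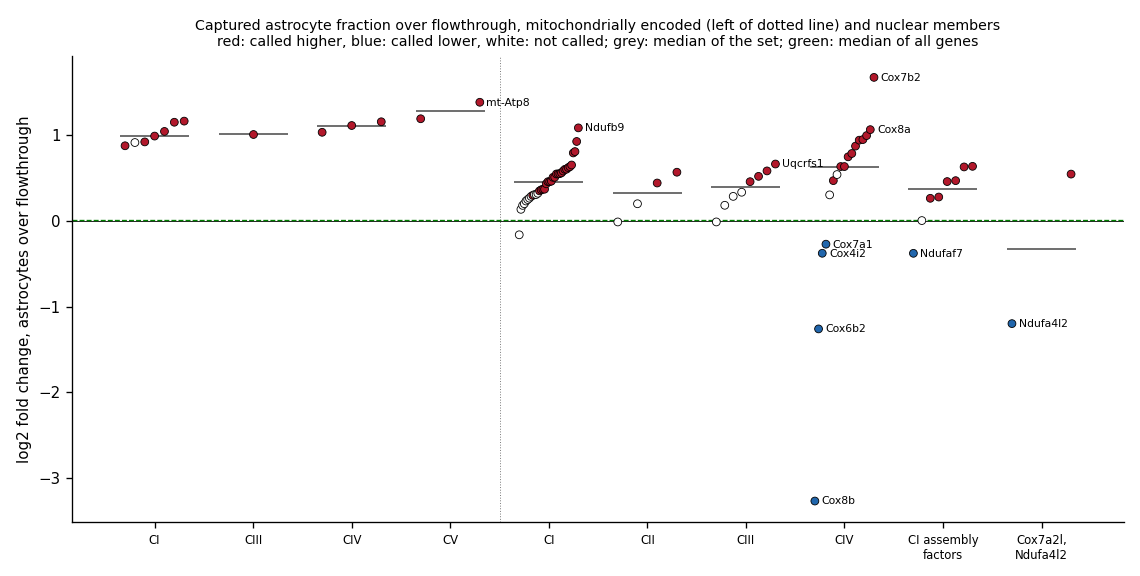
Log2 fold change of astrocytes over flowthrough for each of the 88 members tested, by genome and complex (columns); red points are called higher, blue lower and white not called, grey bars are the median of the column and the green line that of all genes. The mitochondrially encoded members lie between 0.87 and 1.38, the nuclear subunits mostly between 0 and 1.1, and Cox8b at -3.26.

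In complex I, 25 of 36 nuclear subunits were higher, none was lower, and the median was 0.45. Ndufa5, an accessory subunit next to the peripheral arm (ENSMUSG00000023089, chromosome 6, 24518666 to 24528013), had 323, 278, 217 and 293 CPM in KO astrocytes, 241, 301, 294 and 365 in WT astrocytes, 192 and 136 in KO flowthrough and 145 and 138 in WT flowthrough. Every astrocyte library was above every flowthrough library (0.92 ± 0.15, adjusted p = 5.64e-04). Ndufb9 had 912, 862, 529.9 and 842 CPM in KO astrocytes, 641, 927, 792 and 970.4 in WT astrocytes, 544 and 329 in KO flowthrough and 347 and 324 in WT flowthrough. Its astrocyte libraries were higher except KO 73, which fell below KO flowthrough 60 (1.08 ± 0.19, adjusted p = 9.44e-04). Ndufb8, another membrane arm subunit, also passed (0.80 ± 0.14, adjusted p = 8.68e-04). Members named in this comparison beyond the rule for named genes (Ndufs1, Ndufs7, Ndufs8, Ndufv1, Ndufv2, Sdhb, Uqcrc2, Uqcrh, Uqcr11, Uqcrq, Cox5a, Ndufa4 and Ndufaf5) were chosen after their values were seen. Among the nuclear core subunits, some of which carry the flavin or the iron-sulphur clusters, Ndufs7, Ndufv1 and Ndufv2 were higher. Ndufs1 (0.30 ± 0.12, adjusted p = 0.0511), Ndufs3 (0.18 ± 0.09, adjusted p = 0.122) and Ndufs8 (0.30 ± 0.14, adjusted p = 0.0848) did not pass. With the mouse as block, Ndufs1 (0.26 ± 0.09, adjusted p = 0.0383) and Ndufs8 (0.32 ± 0.09, adjusted p = 0.0200) were called higher. Ndufa11, an accessory subunit, was the only one of the 36 with a negative value (-0.16 ± 0.11, adjusted p = 0.237), which did not pass.

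In complex II, Sdha (0.56 ± 0.16, adjusted p = 0.0113) and Sdhb, the iron-sulphur subunit (0.44 ± 0.14, adjusted p = 0.0197), were higher, while the membrane anchors Sdhc (0.20 ± 0.14, adjusted p = 0.267) and Sdhd (-0.02 ± 0.12, adjusted p = 0.927) did not pass. In complex III, 4 of 8 were higher: Uqcrfs1, Uqcrh, Uqcr11 and Uqcrq, with a median of 0.39 over the 8. Uqcrfs1 had 26.4, 19.5, 20.1 and 23.8 CPM in KO astrocytes, 23.6, 31.1, 26.5 and 34.99 in WT astrocytes, 15.9 and 16.2 in KO flowthrough and 15.3 and 17.2 in WT flowthrough. The fractions did not overlap (0.66 ± 0.13, adjusted p = 0.00199). The core proteins Uqcrc1 (0.28 ± 0.14, adjusted p = 0.122) and Uqcrc2 (0.18 ± 0.11, adjusted p = 0.191) did not pass, and mt-Cytb, the mitochondrially encoded subunit of the same complex, had a larger value than any of its nuclear subunits, a difference that was not tested.

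Complex IV held both the largest positive and the largest negative value among nuclear members: 11 of 17 were higher and 4 lower. The 11 subunits that are not tissue isoforms had a median of 0.74, 9 of them higher. Cox5b, a peripheral subunit with a zinc site, had 437, 410.3, 279 and 429 CPM in KO astrocytes, 347, 438, 389 and 469 in WT astrocytes, 277 and 188 in KO flowthrough and 185 and 190.3 in WT flowthrough. The fractions did not overlap, with KO astrocytes 73 just above KO flowthrough 60 (0.94 ± 0.16, adjusted p = 6.62e-04). Cox5a (0.54 ± 0.39, adjusted p = 0.270) and Ndufa4, a complex IV subunit despite its name (0.30 ± 0.13, adjusted p = 0.0795), did not pass. With the mouse as block Ndufa4 was called higher (0.30 ± 0.10, adjusted p = 0.0387).

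The isoform pairs of complex IV went in opposite directions in several cases. Cox8a (ENSMUSG00000035885, chromosome 19, 7215158 to 7217616), the ubiquitous form of subunit VIII, had 1079, 985, 623 and 942 CPM in KO astrocytes, 866, 1061, 945 and 1215 in WT astrocytes, 631 and 379 in KO flowthrough and 426 and 419 in WT flowthrough. Astrocytes were higher except KO 73, which lay just below KO flowthrough 60 (1.06 ± 0.19, adjusted p = 8.06e-04). Cox8b (ENSMUSG00000025488, chromosome 7, 140898943 to 140900446), the form known from heart and skeletal muscle, had 7.44, 3.39, 19.98 and 6.91 CPM in KO astrocytes, 8.63, 3.93, 5.38 and 3.44 in WT astrocytes, 54.7 and 64.5 in KO flowthrough and 85.2 and 71.7 in WT flowthrough. It was lower in every astrocyte library than in every flowthrough library (-3.26 ± 0.38, adjusted p = 6.58e-05). Per length, Cox8b was at 26.1 ± 20.1 RPKM in KO astrocytes and 14.8 ± 6.47 in WT astrocytes, against 165 ± 19.2 in KO flowthrough and 217 ± 26.4 in WT flowthrough, still under Cox8a in each group (927 ± 327 and 776 ± 9.79 RPKM in KO and WT flowthrough). The summed level of 9 ependymal and choroid plexus markers followed the same order of groups: CPM ran between 1940 and 9885 for KO astrocytes and between 2007 and 6251 for WT astrocytes, and was 19431 and 23531 for KO flowthrough and 34214 and 40476 for WT flowthrough. KO astrocytes 73 was the highest astrocyte library for Cox8b and for these markers (9885 CPM), and KO astrocytes 62 the lowest for both (1940 CPM), and their part in the result was not tested.

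Cox6b1 and its testis isoform Cox6b2 also went apart. Cox6b1 was higher in astrocytes (0.63 ± 0.16, adjusted p = 0.00669). Cox6b2 (ENSMUSG00000051811, chromosome 7, 4751792 to 4753094) had 18.03, 12.4, 17.5 and 17.5 CPM in KO astrocytes, 19.3, 18.7, 19.1 and 19.4 in WT astrocytes, 29.1 and 37.2 in KO flowthrough and 51.7 and 56.7 in WT flowthrough. Every flowthrough library was above every astrocyte library (-1.26 ± 0.12, adjusted p = 1.95e-05). Among the ubiquitous forms, Cox4i1 (0.94 ± 0.21, adjusted p = 0.00290), Cox6a1 (0.99 ± 0.25, adjusted p = 0.00680), Cox7a2 (0.63 ± 0.16, adjusted p = 0.00759) and Cox7b (0.47 ± 0.13, adjusted p = 0.0111) were all higher.

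Of the other tissue forms, Cox4i2, known from lung and as a target of hypoxia, was lower in astrocytes (-0.38 ± 0.14, adjusted p = 0.0372), as was the heart and muscle form Cox7a1 (-0.27 ± 0.09, adjusted p = 0.0254). With the mouse as block Cox7a1 was no longer called (-0.30 ± 0.11, adjusted p = 0.0566). The muscle form Cox6a2 (0.78 ± 0.20, adjusted p = 0.00722) and the testis form Cox7b2 (1.67 ± 0.37, adjusted p = 0.00317) were higher, the second at 0.655 to 2.09 CPM in astrocytes and 0.252 to 0.686 CPM in flowthrough. Ndufa4l2, a hypoxia-induced paralogue of Ndufa4, had 5.31, 6.73, 11.5 and 6.47 CPM in KO astrocytes, 7.88, 4.95, 12.1 and 5.34 in WT astrocytes, 23.8 and 18.4 in KO flowthrough and 12.4 and 16.05 in WT flowthrough. The fractions did not overlap, with WT astrocytes 64 just under WT flowthrough 56 (-1.199 ± 0.26, adjusted p = 0.00289). The supercomplex factor Cox7a2l was higher (0.54 ± 0.17, adjusted p = 0.0191). Of 12 mural cell markers, a list chosen after values were seen, 4 were lower in astrocytes (median -0.41) and 4 had positive values. Their summed level overlapped between the fractions, at 540 to 804 CPM in KO and 338 to 995 CPM in WT astrocytes. It was 833 to 873 CPM in KO and 771 to 775 CPM in WT flowthrough. The part of mural cells in these results was not tested.

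**Figure D4:**
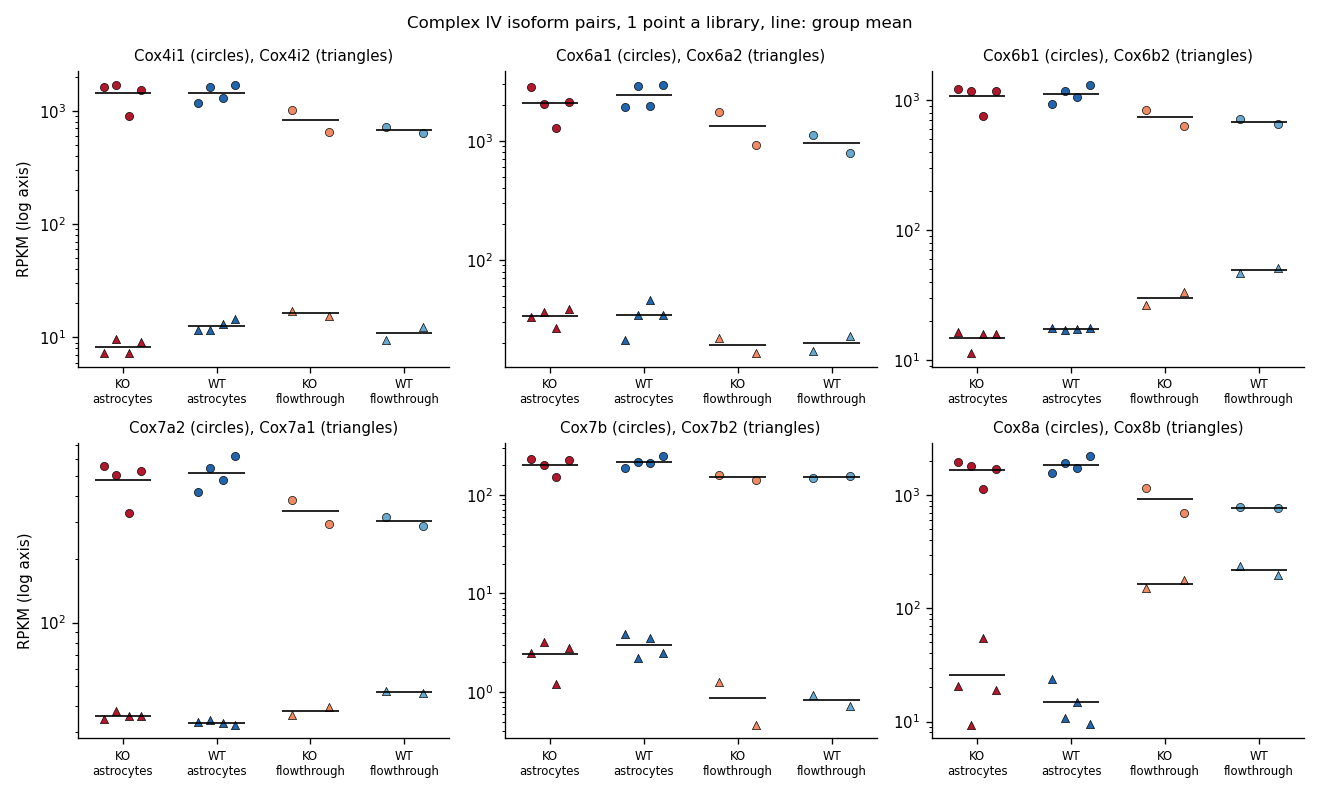
Level (RPKM, log axis) of the ubiquitous form (circles) and the tissue form (triangles) of 6 complex IV subunits in KO astrocytes, WT astrocytes, KO flowthrough and WT flowthrough, 1 point a library with the group mean as a line. Circles lie above triangles everywhere, and Cox6b2 and Cox8b run against Cox6b1 and Cox8a between the fractions.

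Of the 8 complex I assembly factors, 6 were higher, 1 was lower and Ndufaf6 did not pass (0.00 ± 0.27, adjusted p = 0.999). Ndufaf2 (0.63 ± 0.12, adjusted p = 0.00124) and Ndufaf5 (0.63 ± 0.19, adjusted p = 0.0168) had the largest rises. With the mouse as block Ndufaf4 was no longer called (0.20 ± 0.10, adjusted p = 0.154). Ndufaf7, a methyltransferase that modifies a core subunit, had 48.1, 50.9, 49.6 and 48.2 CPM in KO astrocytes, 46.4, 45.6, 51.3 and 45.3 in WT astrocytes, 56.6 and 63.3 in KO flowthrough and 62.5 and 68.7 in WT flowthrough. All flowthrough libraries were above all astrocyte libraries (-0.38 ± 0.08, adjusted p = 0.00281).

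Other genes of the pathway were read from lists, where 24.8% of all genes were higher and 24.4% lower in this comparison. Of 19 nuclear complex V genes, 11 were higher and 1 lower (median 0.35). Atp5k, a small membrane subunit, had 0.74 ± 0.15, adjusted p = 0.00153, and Atp5g1, which encodes a form of the rotor ring subunit, had -0.71 ± 0.11, adjusted p = 3.14e-04. Of 18 mitochondrial rRNA and tRNA genes tested, 16 were higher and none lower (median 1.39), among them the tRNA genes mt-Tc (1.42 ± 0.24) and mt-Tp (1.196 ± 0.23). Of 26 genes that express mitochondrial DNA, 1 was higher and 7 were lower (median -0.16), the share of lower ones being close to that of all genes. Fastk, an RNA-binding protein needed for mt-Nd6, was at 0.90 ± 0.13, adjusted p = 2.30e-04, and the polymerase subunit Polg2 at -1.16 ± 0.27, adjusted p = 0.00395. Of 15 biogenesis regulators 4 were higher and 5 lower, with the nuclear receptor Ppara at 1.12 ± 0.16, adjusted p = 2.43e-04 and the corepressor Nrip1 at -1.45 ± 0.12, adjusted p = 1.34e-05.

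Of 40 genes of cytochrome c, coenzyme Q and complex assembly, 16 were higher and none lower (median 0.25), led by the haem lyase Hccs (0.98 ± 0.14) and the complex III factor Uqcc2 (0.93 ± 0.18). Of 18 citric acid cycle genes 8 were higher and none lower (median 0.24), with pyruvate carboxylase Pcx at 1.31 ± 0.24 and citrate synthase Cs at 0.77 ± 0.17. Of 16 outer membrane and mass markers 3 were higher, a smaller share than among all genes, and none lower (median 0.20). The higher ones included the adenine nucleotide carrier Slc25a4 (0.93 ± 0.16) and the import receptor Tomm20 (0.78 ± 0.19). Of 17 glycolysis genes 7 were higher and 2 lower (median 0.36), with Aldoc, the astrocyte form of aldolase, at 2.12 ± 0.31 and Hk2 at -2.77 ± 0.23. The medians of these 4 lists were all below that of the nuclear members and of the mitochondrially encoded ones; the differences between lists were not tested.

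Of the 6 clock genes, Arntl was higher (0.87 ± 0.17, adjusted p = 0.00128) and Nr1d1 was at 0.29 ± 0.15. Cell type markers differed between the fractions as well. All 12 astrocyte markers were higher in astrocytes (median 1.93), and so were all 12 neuron markers (median 1.65) and 6 of 12 oligodendrocyte markers (median 0.99). All 12 microglia markers (median -3.57), all 12 endothelial markers (median -1.18) and 5 of 9 ependymal and choroid plexus markers (median -2.17) were lower. Summed neuron markers were 1384 to 3152 CPM in astrocytes and 477 to 1284 CPM in flowthrough, and no marker of these lists was at 0 in all libraries of a group. The part of other cell types in the difference between the fractions was not tested.

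The comparison of KO with WT astrocytes is the one named by the study's design. No member passed in either direction, where 0.232% of the 18527 genes tested did (0.146% higher and 0.0864% lower). At an unadjusted p under 0.05 there were 2 of 88 members, Cox4i2 and Ndufaf4, beside 995 of all genes, and DESeq2 and limma-voom also called no member. All 13 mitochondrially encoded members had negative values in KO, with a median log2 fold change of -0.32, against -0.05 over the nuclear members and 0.00 over all genes. None of the 13 separated the labels: for mt-Cytb there were 34354, 26643, 21563 and 30196 CPM in KO astrocytes and 23172, 44312, 28091 and 46666 CPM in WT astrocytes (-0.32 ± 0.31, adjusted p = 0.995). WT 57 and WT 78 were the highest libraries for this gene, and WT 56 was below 3 of the 4 KO libraries. Without KO 73 and WT 78, the median of the 13 was -0.04, and with the mean level of microglia, oligodendrocyte, endothelial and neuron markers as a covariate it was 0.08, with no member called in either. The oligodendrocyte markers, of which 12 of 12 had positive values (median 0.77), the microglia markers (12 of 12, median 0.55) and the astrocyte markers (10 of 12 negative, median -0.23) were measured in the same libraries, with no marker called. The covariate is a single mean over its lists and takes in no astrocyte, ependymal or choroid plexus marker. It therefore cannot give the part of any single cell type in this result, which was not tested.

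Values of single mitochondrially encoded members between the labels ran from -0.61 ± 0.39 for mt-Nd3 and -0.61 ± 0.30 for mt-Nd4l to -0.12 ± 0.24 for mt-Atp8. mt-Co3 (-0.48 ± 0.35), mt-Co2 (-0.43 ± 0.32), mt-Nd5 (-0.38 ± 0.31), mt-Nd2 (-0.36 ± 0.26) and mt-Nd6 (-0.32 ± 0.24) lay between them. So did mt-Nd4 (-0.29 ± 0.26), mt-Co1 (-0.24 ± 0.30), mt-Atp6 (-0.22 ± 0.25) and mt-Nd1 (-0.21 ± 0.26). None of the 13 had an unadjusted p under 0.05, which does not show that they were equal.

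Cox4i2 (ENSMUSG00000009876, chromosome 2, 152754173 to 152765037) had the smallest p of all members. It was at 5.71, 7.61, 5.71 and 7.12 CPM in KO astrocytes and 9.11, 9.15, 10.3 and 11.4 CPM in WT astrocytes. The labels did not overlap, and the difference did not pass (-0.60 ± 0.17, adjusted p = 0.424, unadjusted p = 0.00506). Ndufaf4, an assembly factor, was at 31.9, 30.7, 34.9 and 32.1 CPM in KO and 35.8, 39.9, 36.96 and 42.6 CPM in WT, also without overlap (-0.25 ± 0.11, adjusted p = 0.902). In all, 5 nuclear members had no overlap between the labels (Ndufaf4, Ndufb2, Cox4i2, Cox6b2 and Cox7a1), none of them called. That was 6.58% of the 76, where 4.03% of the 18527 genes tested had no overlap. The next smallest p among lower values belonged to Uqcrfs1 (-0.36 ± 0.16), Ndufc2 (-0.25 ± 0.16) and Ndufb2 (-0.20 ± 0.13).

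Among higher values the smallest p belonged to Cox8b, at 7.44, 3.39, 19.98 and 6.91 CPM in KO and 8.63, 3.93, 5.38 and 3.44 CPM in WT. The difference (0.83 ± 0.51, adjusted p = 0.978) rested on KO 73: without that library it was 0.14. Cox7a1 (0.12 ± 0.12), Ndufv3 (0.14 ± 0.14), Uqcrc1 (0.14 ± 0.17) and Ndufaf7 (0.07 ± 0.10) followed. KO astrocytes 62 was low for 2 nuclear members named here because of their values: Ndufab1, the acyl carrier protein that is also a complex I subunit, had 121, 52.98, 121 and 119.9 CPM in KO and 106, 129, 128 and 137 CPM in WT, and Cox5a had 54.5, 10.8, 46.1 and 58.7 CPM in KO and 38.3, 67.4, 55.3 and 88.05 CPM in WT. These share 9.27% and 9.11% of their 50-base words with transcripts of other genes. Neither passed between the labels (-0.26 ± 0.24, adjusted p = 0.995 for Ndufab1 and -0.54 ± 0.45, adjusted p = 0.995 for Cox5a). Of the remaining ubiquitous forms, Cox4i1 (-0.00 ± 0.23), Cox6a1 (-0.23 ± 0.25), Cox6b1 (-0.04 ± 0.18), Cox7a2 (-0.10 ± 0.19), Cox7b (-0.08 ± 0.15) and Cox8a (-0.16 ± 0.19) had values below 0.

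No gene of the pathway lists passed between KO and WT astrocytes. The list medians were -0.04 for nuclear complex V, -0.52 for mitochondrial rRNA and tRNA, -0.01 for the expression machinery, -0.08 for biogenesis regulators, -0.03 for cytochrome c, coenzyme Q and assembly, -0.02 for the citric acid cycle, -0.06 for outer membrane and mass markers, and 0.01 for glycolysis. The smallest p in each list belonged to Atp5d (-0.26 ± 0.17) and Usmg5 (-0.14 ± 0.18), to mt-Tf (-1.54 ± 0.62) and mt-Te (-0.56 ± 0.30), to Tfb2m (-0.21 ± 0.16) and Lrpprc (-0.16 ± 0.15), and to the coactivator Ppargc1a (-0.44 ± 0.15, adjusted p = 0.675) and Ppara (-0.35 ± 0.19). Further such values were Cox18 (-0.37 ± 0.24) and Sdhaf1 (-0.37 ± 0.30), the NADP-linked dehydrogenase Idh2 (-0.62 ± 0.19, adjusted p = 0.524) and Ogdh (0.53 ± 0.19, adjusted p = 0.714), Vdac3 (0.29 ± 0.10) and Immt (0.14 ± 0.12), and Pfkp (0.36 ± 0.24) and Ldha (-0.21 ± 0.15). Of the clock genes, Nr1d2 (-0.81 ± 0.15, adjusted p = 0.0868) and Nr1d1 (-0.79 ± 0.15, adjusted p = 0.110), repressors and known targets of BMAL1, had the smallest p. None of these is a change by the test used.

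**Figure D5:**
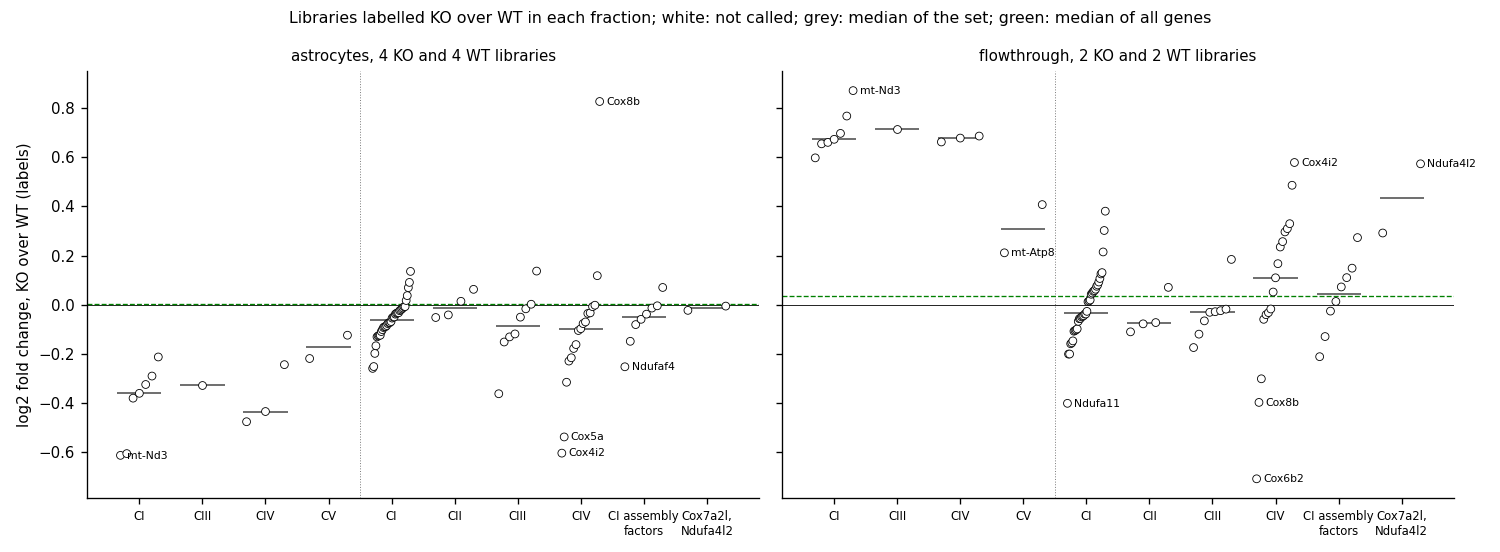
Log2 fold change of KO over WT in astrocytes (left, 4 and 4 libraries) and flowthrough (right, 2 and 2 libraries) for each of the 88 members tested, by genome and complex; white points are not called, grey bars the median of the column, the green line the median of all genes. No point is called; the mitochondrially encoded columns lie below 0 in astrocytes (median -0.32) and above 0 in flowthrough (median 0.67).

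In flowthrough, KO was compared with WT at n = 2 mice each, with the spread pooled over all 12 libraries. No member passed, where 1 of 20997 genes (0.00476%) did. At an unadjusted p under 0.05 there were 3 of 88 members and 973 of all genes, and DESeq2 and limma-voom called no member either. All 13 mitochondrially encoded members had positive values, with a median of 0.67, against -0.02 over the nuclear members and 0.04 over all genes. mt-Cytb was at 24457 and 15949 CPM in KO flowthrough and 15320.0 and 9319 CPM in WT flowthrough (0.71 ± 0.40, adjusted p = 1). KO 132 and WT 56 were nearly level, and the difference came from KO 60 above and WT 64 below them. Without KO 60 or WT 64 the median of the 13 was 0.31 in either case, without WT 56 it was 1.17, and without KO 132 it was 0.95.

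Single values in flowthrough ran from 0.21 ± 0.35 for mt-Atp8 and 0.41 ± 0.35 for mt-Atp6 to 0.77 ± 0.46 for mt-Nd5 and 0.87 ± 0.60 for mt-Nd3, with the other 9 between 0.60 and 0.71. The labels did not overlap for 6 of the 13 (46.2%) and for 21 of the 76 nuclear members (27.6%), where 33.6% of all 20997 genes had no overlap. In the same libraries all 12 neuron markers (median 0.91), all 12 endothelial markers (median 0.55), 11 of 12 astrocyte markers (median 0.44) and 11 of 12 oligodendrocyte markers (median 0.26) had positive values and all 9 ependymal and choroid plexus markers negative ones (median -0.85). Summed neuron markers were 1284 and 603 CPM in KO flowthrough 60 and 132, against 589 and 477 CPM in WT flowthrough 56 and 64. The order of the 4 libraries was the same as for mt-Cytb. Summed ependymal and choroid plexus markers had the reverse order (19431, 23531, 34214 and 40476 CPM). Astrocyte markers (8450, 4209, 4653 and 3253 CPM) followed neither order. Nor did oligodendrocyte markers (29920, 15438, 12498 and 14148 CPM) or endothelial markers (1163, 1310, 655 and 980 CPM). The part of any of these cells in the result was not tested.

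Among nuclear members in flowthrough, the smallest p belonged to Cox6b2, at 29.1 and 37.2 CPM in KO and 51.7 and 56.7 CPM in WT (-0.71 ± 0.20, adjusted p = 1, unadjusted p = 0.00383). Cox4i2 was at 13.6 and 12.1 CPM in KO flowthrough and 7.49 and 9.71 CPM in WT flowthrough (0.58 ± 0.23, adjusted p = 1), the opposite sign to astrocytes. Ndufa11 (-0.40 ± 0.18), Cox7a1 (-0.30 ± 0.15), Ndufaf3 (-0.21 ± 0.14) and Ndufs3 (-0.20 ± 0.15) had the next smallest p on the lower side. Ndufaf2 (0.27 ± 0.19), Ndufa4l2 (0.57 ± 0.44), Ndufb9 (0.38 ± 0.30) and Cox6a1 (0.49 ± 0.39) had them on the higher side. Cox8b was at -0.40 ± 0.63 and Cox8a at 0.26 ± 0.29.

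Of the pathway lists none held a called gene in flowthrough. Mitochondrial rRNA and tRNA had positive values in 16 of 18 (median 0.61), while nuclear complex V (-0.03), the expression machinery (0.03), cytochrome c, coenzyme Q and assembly (0.01), the citric acid cycle (-0.03), outer membrane and mass markers (-0.06), glycolysis (-0.05) and biogenesis regulators (0.11) had medians closer to 0. The smallest p in these lists belonged to Atp5g1 (-0.56 ± 0.18, adjusted p = 1) and Atp5g3 (-0.24 ± 0.25), mt-Tc (0.74 ± 0.38) and mt-Tp (0.66 ± 0.35), Lrpprc (-0.50 ± 0.20) and Fastkd5 (-0.51 ± 0.33), Esrrb (-1.01 ± 0.46) and Nrip1 (0.31 ± 0.20), and Coq7 (-0.30 ± 0.17) and Taco1 (-0.40 ± 0.26). To these come Idh3a (-0.31 ± 0.15) and Dlat (-0.26 ± 0.17), Slc25a5 (-0.27 ± 0.18) and Hspa9 (-0.23 ± 0.17), Pfkl (-0.40 ± 0.17) and Aldoc (0.78 ± 0.45), and the clock genes Nr1d2 (-0.56 ± 0.20) and Clock (0.63 ± 0.25), none of which passed.

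Whether the KO and WT difference itself differed between the fractions was tested as an interaction. No member and no gene passed (0% of 20997), with 4 members and 828 genes at an unadjusted p under 0.05, and with DESeq2 8 genes but no member passed. The mitochondrially encoded members had a median of -1.03 (astrocyte difference minus flowthrough difference), all 13 negative, and the nuclear members -0.08. mt-Nd1 (-0.88 ± 0.38, adjusted p = 0.934) and mt-Nd6 (-1.03 ± 0.45, adjusted p = 0.934) were the 2 with an unadjusted p under 0.05. On the 4 mice with both fractions alone, with the mouse as a replicate block, the mitochondrial median was -0.39, and without the block -0.33. Cox4i2 had the largest value among nuclear members relative to its error (-1.19 ± 0.28, adjusted p = 0.934, unadjusted p = 0.00117), followed by Cox7a1 (0.41 ± 0.18), Cox6b2 (0.48 ± 0.24) and Cox8b (1.22 ± 0.78). Ndufa11 (0.34 ± 0.22), Ndufaf7 (0.19 ± 0.17), Cox6a1 (-0.72 ± 0.48), Ndufaf4 (-0.27 ± 0.19), Ndufb4 (-0.44 ± 0.32) and Uqcrfs1 (-0.35 ± 0.26) were the others with the smallest p in their direction. For the lists, the values with the smallest p were Atp5g1 (0.60 ± 0.22) and Atp5k (-0.28 ± 0.28), mt-Tc (-0.99 ± 0.46) and mt-Th (-1.94 ± 0.91), Fastkd5 (0.60 ± 0.40) and Lrpprc (0.34 ± 0.24), and Ppargc1a (-0.37 ± 0.25) and Gabpa (-0.39 ± 0.28). The other lists gave Coq3 (0.34 ± 0.23) and Taco1 (0.45 ± 0.32), Idh3a (0.35 ± 0.18) and Ogdh (0.47 ± 0.31), Vdac3 (0.24 ± 0.17) and Vdac2 (0.21 ± 0.17), Pfkl (0.34 ± 0.20) and Pkm (0.57 ± 0.37), and Nr1d1 (-0.81 ± 0.29) and Per2 (-0.82 ± 0.41).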

How the data were processed

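Total RNA (Trizol, then columns) went into SMARTer v1 libraries, per the labels' protocols. The deposited counts are whole numbers of reads per gene; the authors' deposited CPM equal the count per total count, and the authors' deposited RPKM are those CPM per kilobase of summed exon length. The submitters' processing notes name STAR 2.5.1a, featureCounts 1.4.6-p5, Subread and bcl2fastq, with GRCm38 as the build. The sources used here do not state the strand setting, the rule for multi-mapping reads or the annotation. Only counts were tested. The deposited CPM and RPKM columns served to check them, and levels in the text are TMM-scaled CPM of the 12-library fit and the same per kilobase.

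Tests used edgeR 4.0.16 in R 4.3.3 (glmQLFit and glmQLFTest, two-sided, TMM, filterByExpr by group, Benjamini-Hochberg over all genes, called at an adjusted p under 0.05). KO and WT astrocytes were compared on 8 libraries (18527 genes, 6 residual degrees of freedom). The other contrasts used 1 mean per group in all 12 libraries (20997 genes, 8 degrees of freedom). Log2 fold changes are given with standard errors, levels with SD. The standard error was derived from the test, as the absolute log2 fold change over the square root of the quasi-likelihood F. Replicates are separate mice. The fraction contrast is the mean of the KO and the WT difference. The scripts were tested on simulated counts. Transcripts for shared words and copies came from GENCODE M21. Named genes are all mitochondrially encoded members, the 5 nuclear members with the smallest p per direction and comparison, isoform pairs, the extremes of each complex and 2 genes per list; others are said to be chosen after their values were seen. Members and lists were chosen with earlier results of these data known. One member is counted in the totals but not reported here by name.

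Alternatives were RLE or library size scaling, scaling without mitochondrial genes, no filter, a filter at 1 CPM, limma-voom (limma 3.58.1), DESeq2 1.42.0, a covariate from markers of other cells, all 12 libraries for astrocytes, other sets of libraries, the mouse as block, and each library left out. The same mouse gave both fractions in 4 animals, per the titles. Deviations of its libraries from their group means correlated at -0.01 for mouse 132, 0.15 for 56, 0.35 for 60 and 0.25 for 64.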

Additional observations from a re-analysis of the deposited data

Results flagged for a closer look

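Among the 4 libraries of each astrocyte group, 20 of 182 member values or shares had a highest or lowest library far from the others (a gap over the range above Dixon's 95% critical value). Chance gives about 1 in 20 for a single value. The 182 values come from the same libraries and are not independent, so their count cannot be set against that rate. KO 73 was the low library in 15 of the 20. It was also the lowest of the KO astrocytes for 76 of 88 members.

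For mitochondrially encoded members, KO 73 had 13303 CPM of mt-Nd1, against 17690 to 18396 CPM in the other KO astrocytes, and 465 CPM of mt-Co3, against 952 to 1033 CPM. Among complex I subunits it had 194 CPM of Ndufa11, 448 of Ndufa13, 215 of Ndufa2, 364 of Ndufa3, 204 of Ndufa9, 314 of Ndufb10, 70.2 of Ndufb4, 173 of Ndufc1 and 233 of Ndufs8. In complexes III and IV it had 320.4 CPM of Uqcrq, 279 of Cox5b and 378 of Cox6b1. Its nuclear member share was 1.83%, against 2.28% to 2.33% in the other KO astrocytes.

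KO 62 was low for Ndufab1 (53.0 CPM, against 119.9 to 121) and Cox6b2 (12.4 CPM, against 17.5 to 18.03). In WT astrocytes, 64 was low for Uqcrc1 (327 CPM, against 394 to 397), and 78 was high for Ndufaf1 (35.8 CPM, against 26.7 to 27.1) and Sdhb (458 CPM, against 357 to 371).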

How the results depend on the processing

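No member was called between KO and WT, or in the interaction, under any of the alternatives run. Between the fractions, 39 of the 67 calls held in all 22 alternatives; leaving out 1 library gave 40 to 79 calls, the lowest without KO flowthrough 132. With the mouse as replicate block on the 4 mice with both fractions there were 73 calls, 65 of them among the 67 and 8 others, mt-Nd3 included; the block added no call elsewhere. No paired analysis was possible because KO and WT mice share no number, for the comparisons of the labels within a fraction. With library size scaling, which moves the median of all genes to -0.14, the fraction contrast gave 61 calls and medians of 0.87 (mitochondrially encoded) and 0.30 (nuclear).

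Among the medians that moved were these. Between KO and WT astrocytes the nuclear median was 0.11 without KO 73 and WT 78 and 0.16 with the covariate, and -0.12 to 0.04 with 1 library left out. The mitochondrially encoded median, -0.32 in the main fit, was -0.04 without KO 73 and WT 78 and 0.08 with the covariate. It was -0.48 to -0.17 with 1 library left out. Between KO and WT flowthrough the mitochondrially encoded median was 0.31 to 1.17 with 1 library left out. In the interaction the mitochondrially encoded median was -0.39 with the replicate block and -0.33 on the same 4 mice without it. The nuclear median was 0.12 without KO 73 and WT 78, 0.19 with the block and 0.17 without it. The nuclear median level in WT flowthrough was 155 RPKM by library size alone. Over single named members and alternatives, 25 values lost and 5 gained a call, and 2508 stayed as they were, called or not called. No call between the fractions changed its sign. Values that were not called could change sign: mt-Co3 between KO and WT astrocytes was -0.48 in the main fit and up to 0.21 in the alternatives. Of the 25, 13 were lost without KO flowthrough 132 or WT flowthrough 64, which leaves 1 library in that group. Each label has only 2 flowthrough libraries, which limits the precision there.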
